A study of Oryctolagus cuniculus with 16 samples.

Results

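The genes described here are short intronless genes of the rabbit: annotated genes with 1 exon entry and a length of 300 to 899 bases, outside the mitochondrial genome and outside positions 21800000 to 24200000 of chromosome 12. The rule took 1121 of the 23669 genes in the deposited count files, from the annotation columns alone and without using any measured value. RNA was sequenced from cells sorted at day 7 out of the cerebral hemispheres. The animals were preterm rabbit kits of the New Zealand breed, and all had moderate to severe intraventricular haemorrhage (IVH, bleeding into the fluid-filled cavities of the brain). Every kit received an adenovirus into the ventricle, either Ad-PPARg, which carries PPARg, a ligand-activated nuclear receptor of lipid metabolism and inflammation, with green fluorescent protein, or the vector control Ad-GFP, which carries green fluorescent protein alone. A CMV promoter, which is not restricted to a cell type, drives the vector, and no kit without IVH or without virus is among the groups. One sort took CD45-low, CD11b-positive microglia, which are the brain's own immune cells. The other took O4-positive progenitors of oligodendrocytes (OPC), which give rise to myelinating cells. Each of the 4 groups (microglia Ad-PPARg, microglia Ad-GFP, OPC Ad-PPARg and OPC Ad-GFP) has 4 libraries, each from a different animal. The 16 libraries came from 10 animals, of which 6 gave both cell types. The replicate numbers used below only name libraries and do not pair them across groups.

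Most protein-coding genes of mammals are interrupted by introns. Some well-known short genes are not. One such kind, retrocopies, arise when a messenger RNA is copied back into DNA and inserted elsewhere in the genome. They lack the introns and usually the promoter of the parent gene, and reads from the parent can be assigned to a copy that is nearly identical to it. The replication-dependent histone genes are the other kind. They encode the core histones H2A, H2B, H3 and H4, around which DNA is wrapped, lie in clusters, are transcribed mainly while DNA is replicated, and end in a stem-loop in place of a poly(A) tail. The files give identifiers and positions but no gene names, so that neither kind could be told by name, and the sorted cell types could not be checked against named markers. Lengths and positions are used in their place, and a length is not an identity: the ribosomal proteins RPS15A and RPL27, for example, are as long as H2A and H3.

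The lengths of the intronless genes fitted coding sequences more often than those of spliced genes. Of the 1121, 973 (86.8%) had a length divisible by 3, against 57.9% of the 17703 genes with more than 1 exon entry, 95.9% of the 1363 longer single-exon genes and 36.0% of the 3444 shorter ones. Their median length was 468 bases. The most frequent lengths were 471 bases (29 genes), 411 (27), 300 (25), 381 (22), 318 (20) and 393 (19). Coding sequences of the core histones, stop codon included, have 312 (H4), 381 (H2B), 393 (H2A) and 411 bases (H3), and 82 of the genes had 1 of these lengths: 14, 22, 19 and 27 respectively. Of the 1121, 841 (75.0%) lay on numbered chromosomes or X and the others on unplaced scaffolds. Chromosome 1 held 103, chromosome 12 held 83 and the X chromosome 80. Most (976, 87.1%) overlapped no other annotated gene. A further 137 lay inside an intron of another gene, 109 of them on the strand opposite to it, and 8 overlapped an exon.

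**Figure D1:**
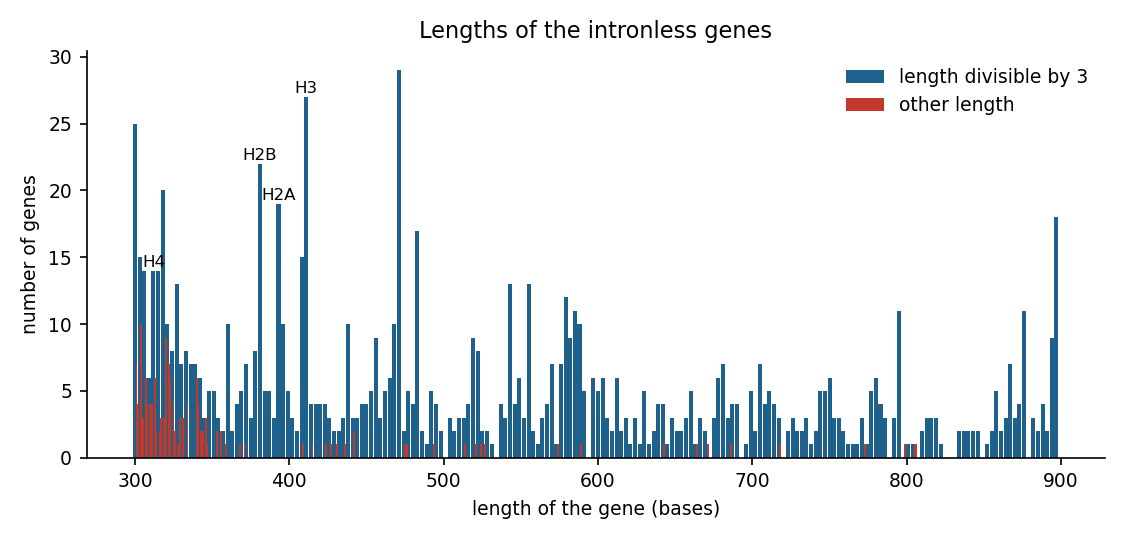
Number of intronless genes (vertical axis) at each length in bases (horizontal axis), with lengths divisible by 3 in blue and other lengths in red; H4, H2B, H2A and H3 mark the lengths of the core histone coding sequences. Single lengths stand out from their neighbours, among them 471, 411, 381 and 393 bases.

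Library totals ran from 6242342 to 17608855 counts on genes. Pairs of microglia libraries had Spearman correlations of 0.946 to 0.989, pairs of OPC libraries 0.912 to 0.991, and mixed pairs 0.637 to 0.725. In 5 libraries many more genes had at least 1 count at equal depth than in the other 11: microglia Ad-PPARg replicate 1, microglia Ad-GFP replicates 2 and 4, OPC Ad-PPARg replicate 2 and OPC Ad-GFP replicate 3. They are spread over all 4 groups. After thinning to the smallest total, 68.5 to 85.0% of the intronless genes had a count in these 5 libraries and 48.0 to 57.9% in the others. Longer single-exon genes went the same way, with 68.5 to 92.1% against 30.4 to 46.4%. The cause was not tested. Some results below are also given without these libraries, but the means of the shares detected are not.

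Fewer intronless genes were detected than spliced genes, in both cell types. At 1 CPM or more (CPM is the per-million count, scaled to the library total), 30.4% ± 3.12 of the intronless genes were detected in microglia (SD, n = 8, lowest 27.9, median 29.7, highest 37.6%) and 30.8% ± 1.54 in OPC (n = 8, lowest 28.5, median 30.6, highest 32.9%). The ranges of the cell types overlapped. Genes with more than 1 exon entry were detected at 67.1% ± 5.79 in microglia and 69.9% ± 3.53 in OPC, and longer single-exon genes at 23.0% ± 7.30 and 22.6% ± 2.08 (n = 8 each). Of the longer ones 40.8% were detected in microglia Ad-PPARg replicate 1 and 18.9 to 22.2% in the other microglia libraries. The 1 CPM threshold takes no account of length. The median length was 468 bases for the intronless genes and 1817 bases for genes with more than 1 exon entry. At 1 CPM per kilobase or more, the shares were 37.6% ± 8.36 against 61.0% ± 4.81 in microglia and 38.5% ± 5.07 against 65.3% ± 2.89 in OPC. Of the 1121 genes, 226 (20.2%) reached 1 CPM in all 16 libraries and 590 (52.6%) in none. Only 15 had no count in any library, and a count of 0 allows up to 3 counts, or 0.170 to 0.481 CPM depending on the library. There were 13 genes (1.16%) at 1 CPM in all microglia libraries and in no OPC library, and 24 (2.14%) with the reverse. The share over all genes is not given here, so these 2 counts cannot be read as a trait of the intronless genes. The treatments overlapped. In microglia 31.0% ± 4.43 were detected with Ad-PPARg and 29.7% ± 1.37 with Ad-GFP, and in OPC 30.5% ± 1.86 and 31.2% ± 1.35 (n = 4 each). With 1 library left out, the difference, Ad-PPARg minus Ad-GFP, ran from -0.84 to 2.34 percentage points in microglia and from -1.42 to 0.07 in OPC.

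**Figure D2:**
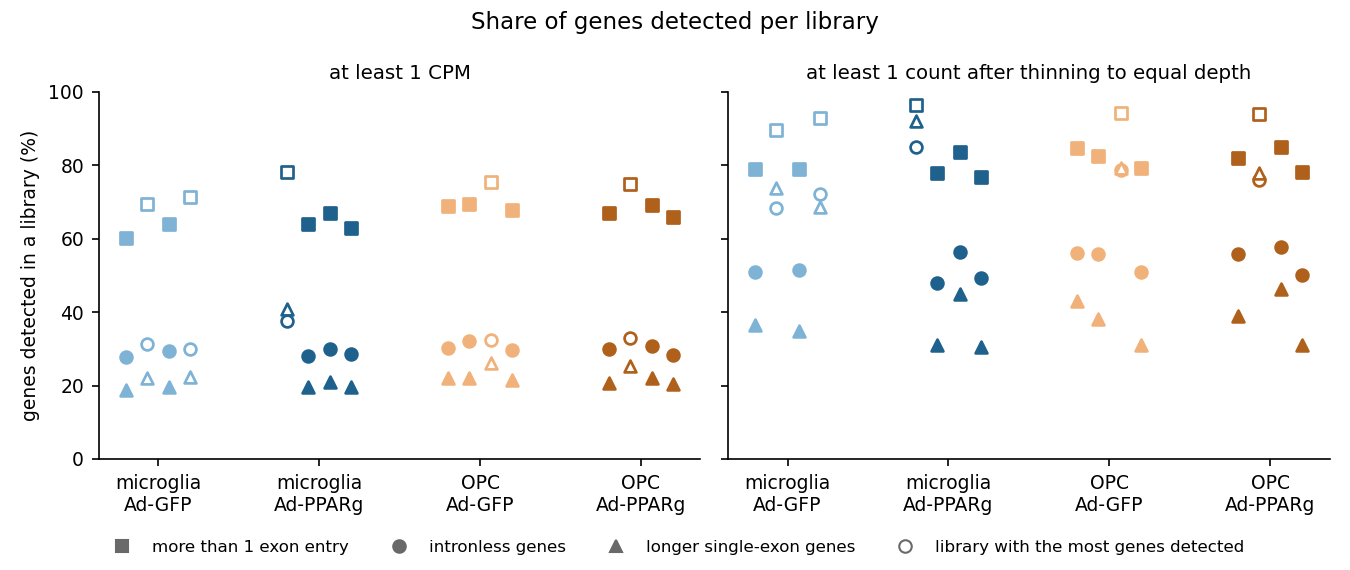
Percentage of genes detected in each library (vertical axis) by group, for the intronless genes (circles), longer single-exon genes (triangles) and genes with more than 1 exon entry (squares), at 1 CPM or more (left) and with at least 1 count after thinning to equal depth (right); open symbols are the 5 libraries with the most genes detected. In every library the intronless genes lie below the spliced genes, and in the right panel the open symbols lie above the filled ones of the same kind.

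A small number of these genes carried most of their signal. Together the 1121 genes took 1.49% ± 0.140 of all gene counts in microglia (n = 8, 1.35 to 1.73%) and 1.25% ± 0.193 in OPC (n = 8, 0.936 to 1.56%), and the ranges overlapped. The 5 genes with the most counts held 27.4% of this, the top 20 held 56.6% and the top 50 held 74.1%. Levels between genes were compared as CPM per kilobase of length. These CPM, like the levels below in the comparisons of cell types, use edgeR's TMM scaling between libraries. The shares above are of plain library totals. The gene with the highest level in both cell types was 1 of 574 bases on scaffold GL018702 (7680309 to 7680882). Its level was 2385 ± 449 CPM per kb in microglia (n = 8, lowest 1611, median 2350, highest 3040) and 1122 ± 285 in OPC (n = 8, lowest 672, median 1079, highest 1647). The OPC libraries were lower with a slight overlap, and the log2 difference in CPM, OPC minus microglia, was -1.08 (SE 0.17, edgeR adjusted p = 2.79e-05). Next in microglia was a gene of 438 bases on chromosome 9 (64291315 to 64291752), at 2008 ± 455 CPM per kb, and in OPC a gene of 729 bases on scaffold GL018740 (307741 to 308469), at 1073 ± 233. The first of these lies inside an intron of another gene on the opposite strand. These neighbours of the top gene differed from it by less than 1 SD. Of the 5 highest genes, 4 were the same in both cell types.

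Of the 20 genes with the highest level per kilobase, 18 were higher in microglia and 2 higher in OPC (edgeR, adjusted p under 0.05), against 33.4% and 35.1% of all 14699 genes tested. Their summed level was 7031 CPM in the lowest microglia library, 10326 in the median and 12856 in the highest, and 4010, 5032 and 7385 CPM in OPC. These sums are on the TMM scale too, and how far the distance between them depends on that scaling was not tested. The lowest microglia library (Ad-PPARg replicate 1) was below the highest OPC library (Ad-PPARg replicate 1), and these come from the same animal. Within a cell type most of the 20 genes varied together across libraries. The median Pearson correlation between pairs of them, on log2 CPM over the 8 libraries, was 0.82 in microglia and 0.87 in OPC. Other genes above 100 CPM had a median of 0.27 and 0.08 over the same libraries (2330 genes). The libraries are shared by all pairs, and the genes were chosen for level, so that these values are a description. In OPC, Ad-PPARg replicate 4 was the lowest OPC library for 15 of the 20, and without it the median correlation was 0.88.

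Between the cell types, more intronless genes were higher in microglia than in OPC. A gene entered the test when its counts passed edgeR's default filter, which 431 of the 1121 did and 690 did not. The filter keeps a gene that is high enough in as few libraries as a group has, so genes high in only 1 cell type pass it more easily than genes low in both, and the 431 do not stand for all 1121. Of the 431, 179 (41.5%) were higher in microglia and 103 (23.9%) higher in OPC (edgeR quasi-likelihood test, adjusted p under 0.05). Of all genes tested, 33.4% and 35.1% were called in these directions. At a difference of 2-fold or more the numbers were 129 and 71, against 21.0% and 22.9% of all genes. In 92 genes every microglia library was above every OPC library, and in 59 the reverse held, against 20.3% and 20.6% of all genes. The median log2 difference, OPC minus microglia, was -0.50 over the 431 genes and -0.01 over all genes tested. Upper-quartile scaling moved the median of all genes to 0.19 and that of the intronless genes to -0.28, which leaves the distance between the medians nearly as it was. With that scaling 157 genes were higher in microglia and 122 in OPC. Without the 5 libraries with the most genes detected, 175 and 102 were called. The shares of all genes called under these settings are not given here. These counts therefore cannot be set against the 33.4% and 35.1% of the main fit.

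The numbers were also taken by level. Of the 26 genes with a mean of at least 100 CPM, 21 (80.8%) were higher in microglia and 4 in OPC. Other genes of that level leaned the same way but less far, with 51.7% higher in microglia and 28.2% in OPC. From 10 to 100 CPM the intronless genes numbered 140, of which 66 (47.1%) were higher in microglia and 34 (24.3%) in OPC, against 36.1% and 38.5% of other genes at that level. Under 10 CPM there were 265, of which 92 (34.7%) and 65 (24.5%) were, against 19.1% and 34.2% of other genes. The genes whose length is not divisible by 3 numbered 148, and 30 of these were tested. Of those, 16 (53.3%) were higher in microglia and 2 (6.67%) in OPC, against 33.4% and 35.1% of all genes tested. Genes on scaffolds (102 tested, 47 and 21) and on chromosomes (329 tested, 132 and 82) leaned alike, as did genes outside other genes (388 tested, 161 and 97). Differences between these subsets were not tested.

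**Figure D3:**
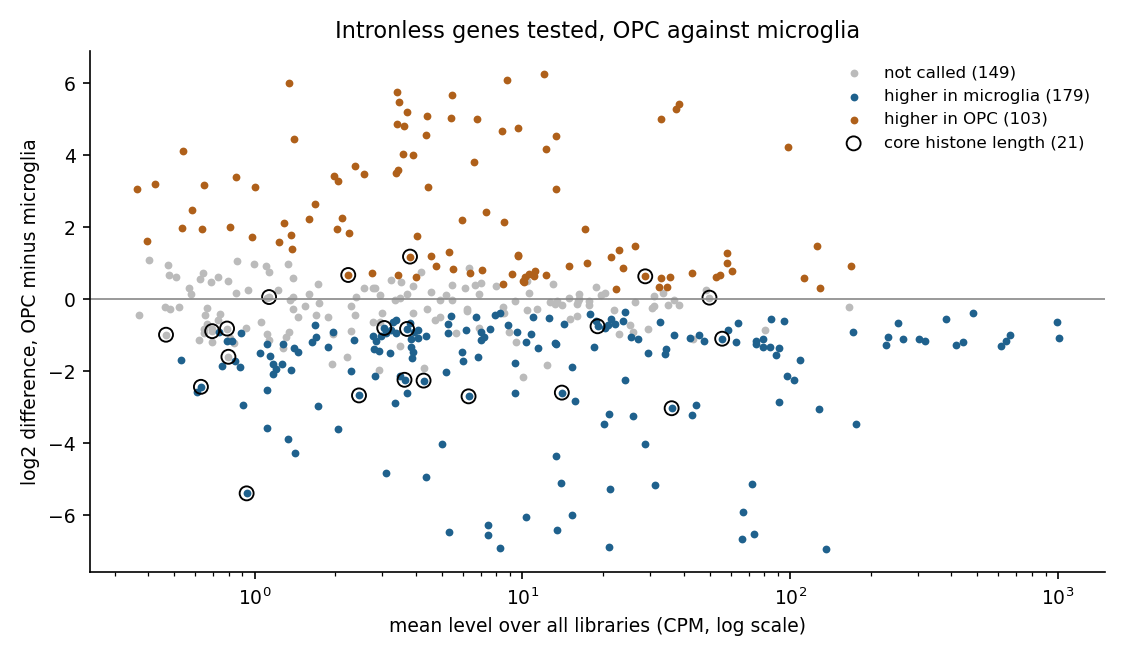
Log2 difference, OPC minus microglia (vertical axis), against the mean level over all 16 libraries in CPM on a log scale (horizontal axis) for the 431 intronless genes tested; colours mark the 179 genes called higher in microglia, the 103 called higher in OPC and those not called, and rings mark the 21 genes of core histone length. At the high end of the level axis nearly all points lie below 0.

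Several genes were above 5 CPM in every library of one cell type and under 4 CPM in every library of the other. The gene with the lowest p among those higher in microglia, ENSOCUG00000023214 (scaffold GL018833, 204747 to 205433, 687 bases), had 17.3 CPM in the lowest, 25.7 in the median and 35.6 in the highest microglia library. In OPC the values were 0.131, 0.261 and 0.707 CPM. No OPC library came near a microglia library, and the log2 difference was -6.40 (SE 0.23, n = 8 each, edgeR adjusted p = 1.94e-12). Second was ENSOCUG00000007222 on chromosome 1 (116168530 to 116169273, 744 bases), at 148, 158 and 175 CPM in microglia and 17.7, 21.7 and 27.7 CPM in OPC. It had little spread in either cell type (log2 difference -2.85, SE 0.10, edgeR adjusted p = 1.99e-12). Further genes at 5 CPM or more in microglia with the widest differences lay on chromosomes 1, 3, 6, 13 and 17 and on scaffolds GL018705 and GL018806, and their log2 differences ran from -6.27 to -6.93. The most abundant of these was 465 bases long on chromosome 17 (41176437 to 41176901), with 172, 265 and 348 CPM in microglia and 0.536, 1.90 and 3.76 CPM in OPC. Another, of 555 bases on chromosome 13 (41040254 to 41040808), had 95.6, 144 and 178 CPM in microglia and 0.179, 1.89 and 2.71 CPM in OPC. In both genes the lowest microglia library was far above the highest OPC library. Some of the further genes had an OPC library with no count. Their OPC medians went down to 0.0672 CPM, under the counting limit of 0.170 to 0.481 CPM. The sizes of these differences, and so their order, are uncertain.

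On the OPC side the lowest p belonged to ENSOCUG00000028131 on the X chromosome (86708068 to 86708403, 336 bases). It had 161, 181 and 231 CPM in the lowest, median and highest OPC library and 4.51, 10.0 and 17.0 CPM in microglia (log2 difference 4.23, SE 0.24, n = 8 each, edgeR adjusted p = 1.53e-10). A second X-linked gene, of 372 bases (86919360 to 86919731), nearby had 59.3, 72.8 and 98.0 CPM in OPC and 0.096, 1.69 and 3.54 CPM in microglia. The next by p was ENSOCUG00000013829 on chromosome 8 (49910756 to 49911535, 780 bases), inside an intron of a gene on the opposite strand. Its values were 15.3, 23.3 and 43.0 CPM in OPC and 0.338, 1.13 and 1.56 CPM in microglia (log2 difference 4.54, SE 0.27, edgeR adjusted p = 2.59e-10). The widest difference was that of a gene of 660 bases on chromosome 13 (123389990 to 123390649). Its level varied widely within OPC (6.01, 16.3 and 73.0 CPM) and was 0, 0.211 and 1.15 CPM in microglia, a log2 difference of 6.24 (SE 0.68). With microglia values that low, the size of this difference is uncertain. No microglia library overlapped an OPC library in any of these genes.

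For genes inside an intron, the gene around them was compared too, since the sources used here do not say whether counting used strand. In 38 cases both were tested. Across the 35 genes on the opposite strand, the log2 differences of the gene and of its host correlated at 0.01 (Pearson, across genes, which are not independent replicates). Both were called in 14 of them, in the same direction in 4. On the same strand there were 3 tested pairs, and in all 3 both genes were called in the same direction.

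On chromosome 12, 54 of the intronless genes were 300 to 420 bases long, and 25 of these had a core histone length. Of the 25, 22 formed a run of 237519 bases (10794454 to 11031972), in which 30 genes of any kind are annotated. By length the run held 7 genes like H2A, 8 like H2B, 7 like H3 and none like H4, and none of the 22 overlapped another gene. In 5 places a gene of H2A length and a gene of H2B length lay head to head, 298 to 390 bases apart. Pairs that point away from each other around a shared promoter are a known arrangement of H2A and H2B genes.

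The summed level of this run was higher in microglia than in OPC, and the mean of 20 of its 22 genes was. The sum was 30.2 CPM in the lowest, 48.6 in the median and 75.0 in the highest microglia library (mean 50.0 ± 12.3, SD, n = 8), and 9.29, 10.7 and 14.1 CPM in OPC (mean 11.1 ± 1.71, n = 8). All microglia libraries were above all OPC libraries, and the ratio of the means was 4.52. A single gene, at 10913957 to 10914337, gave 24.1 ± 10.4 CPM of this in microglia and 3.95 ± 0.608 in OPC. The other 21 summed to 25.9 ± 5.77 CPM (18.3 to 34.4) in microglia and 7.13 ± 1.64 CPM (5.32 to 9.65) in OPC, again without overlap. Without the 5 libraries with the most genes detected, the ranges of the full sum were the same, 30.2 to 75.0 CPM (n = 5) and 9.29 to 14.1 CPM (n = 6). In sorted bulk cells, more cells that make a transcript and more transcript per cell cannot be told apart. The genes of H2B length made up most of it, with 33.7 ± 11.1 CPM in microglia and 6.17 ± 0.818 in OPC. Those of H2A length summed to 13.9 ± 3.40 and 3.44 ± 0.960 CPM. The 7 of H3 length summed to only 2.43 ± 1.72 and 1.47 ± 0.524 CPM (n = 8 each), and none of these passed the filter on low counts.

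Of the 22 genes 6 were tested and 5 were called, all higher in microglia, where 33.4% of all genes tested were. Their log2 differences were -2.24 to -2.67. Genes high in only 1 cell type pass the filter on low counts more easily, so the 5 of 6 do not stand for the 22. The most abundant, of 381 bases at 10913957 to 10914337, had 11.8, 23.5 and 44.6 CPM in microglia and 2.62, 4.04 and 4.54 CPM in OPC (log2 difference -2.59, SE 0.24, n = 8 each, edgeR adjusted p = 5.44e-08). A head-to-head pair was measured at 10849089 to 10849469 (381 bases) and 10849810 to 10850202 (393 bases). The gene of H2B length had 0.338, 0.992 and 1.79 CPM in microglia and 0.0537, 0.167 and 0.519 CPM in OPC, a log2 difference of -2.43 (SE 0.47, edgeR adjusted p = 0.000202). Its partner of H2A length had 4.61, 6.48 and 10.1 CPM in microglia and 0.909, 1.44 and 2.01 CPM in OPC, a log2 difference of -2.26 (SE 0.25, edgeR adjusted p = 4.34e-07). The partners thus differed in level but shared the direction of the difference. The gene of H2B length rests on 1 to 18 counts a library and its cell types overlapped, so the size of its difference is uncertain. The sixth gene, of 393 bases at 10866849 to 10867241, did not pass (log2 difference -0.99, SE 0.67, edgeR adjusted p = 0.203).

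The other chromosome 12 genes of 300 to 420 bases were a mixed set. Outside the run there were 32, of which 7 were tested, 2 were higher in microglia and 1 in OPC, against 33.4% and 35.1% of all genes tested. Over all 54, run included, 13 were tested and 7 and 1 were called. A gene of 411 bases at 4376635 to 4377045 was the most abundant, with 43.2, 79.9 and 98.7 CPM in microglia and 28.6, 32.5 and 50.2 CPM in OPC (log2 difference -1.10, SE 0.17, n = 8 each, edgeR adjusted p = 2.20e-05). One call rested on a single library. The gene of 331 bases at 42739160 to 42739490 had 0.525 CPM in the lowest, 3.50 in the median and 273 in the highest microglia library (Ad-PPARg replicate 1), and 0.130, 1.48 and 11.3 CPM in OPC. Its log2 difference was -3.20 (SE 1.10, edgeR adjusted p = 0.0171), and -0.60 without that library (adjusted p = 0.476). The call was also lost without the filter (edgeR adjusted p = 0.0518) and with the animal as a random block (limma voom adjusted p = 0.201). The only gene higher in OPC, of 309 bases at 86876001 to 86876309, had 8.72, 11.7 and 15.5 CPM in OPC and 5.00, 8.63 and 11.8 CPM in microglia. The cell types overlapped, and the difference was small (log2 0.49, SE 0.17, edgeR adjusted p = 0.0198). It did not pass without OPC Ad-GFP replicate 4 (adjusted p = 0.0505), within either treatment, or without the 5 libraries with the most genes detected (adjusted p = 0.109). In the share detected, 20.8% ± 9.69 of the 54 reached 1 CPM in microglia and 15.3% ± 1.92 in OPC (n = 8 each). The highest microglia library, at 44.4%, was Ad-PPARg replicate 1, and the next was at 20.4%.

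All genes of core histone length on scaffold GL018747 (14 genes) and on chromosome 13 (8 genes) were also summed, without regard to the distance between them. The 14 on the scaffold summed to 35.6, 61.0 and 103 CPM in the lowest, median and highest microglia library and to 4.24, 9.28 and 12.4 CPM in OPC, a ratio of means of 7.39. Nearly all of this came from 1 gene of H2A length at 692121 to 692513, the only one of the 14 that was tested, with 30.6, 59.1 and 99.6 CPM in microglia and 3.76, 8.01 and 10.3 CPM in OPC (log2 difference -3.03, SE 0.25, n = 8 each, edgeR adjusted p = 1.50e-08). The 8 on chromosome 13 summed to 21.8, 37.2 and 67.3 CPM in microglia and 11.6, 15.4 and 37.5 CPM in OPC. Here the cell types overlapped, because OPC Ad-PPARg replicate 4 stood at 37.5 CPM. On chromosome 13, 4 were tested and 3, between 42144544 and 42190216, were higher in microglia, where 33.4% of all genes tested were. Among them was a gene of H2A length at 42158889 to 42159281 (log2 difference -2.70, SE 0.28, edgeR adjusted p = 1.96e-07). The other, of H3 length at 74316121 to 74316531, did not pass (log2 difference 0.06, SE 0.69, edgeR adjusted p = 0.945). Genes high in only 1 cell type pass the filter on low counts more easily, so the 3 of 4 do not stand for all 8. The other 38 genes of core histone length were scattered. They summed to 168 ± 23.0 CPM in microglia and 138 ± 23.0 in OPC (n = 8 each). Of this, 76.1 ± 19.6 and 35.4 ± 7.40 CPM came from the chromosome 12 gene of 411 bases at 4376635 to 4377045. That gene differed between the cell types by more than the sum did, so the summed level of the others was not higher in microglia. By gene, the mean of 28 of the 38 was higher in microglia. Of the 10 tested 3 were higher in each cell type, near the 33.4% (microglia) and 35.1% (OPC) of all genes tested. A gene of H4 length on chromosome 9 (56808680 to 56808991), with 18.2, 22.5 and 27.2 CPM in microglia and 29.3, 35.6 and 42.5 CPM in OPC, was higher in OPC without overlap (log2 difference 0.64, SE 0.11, edgeR adjusted p = 8.77e-05). Another, on scaffold GL018843, did not pass (log2 difference 0.04, SE 0.21, adjusted p = 0.864). Of all 21 tested genes of core histone length, chromosome 12 included, 12 were higher in microglia and 3 in OPC, against 33.4% and 35.1% of all genes tested. The limit set by the filter holds for these 21 too, which do not stand for all 82.

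**Figure D4:**
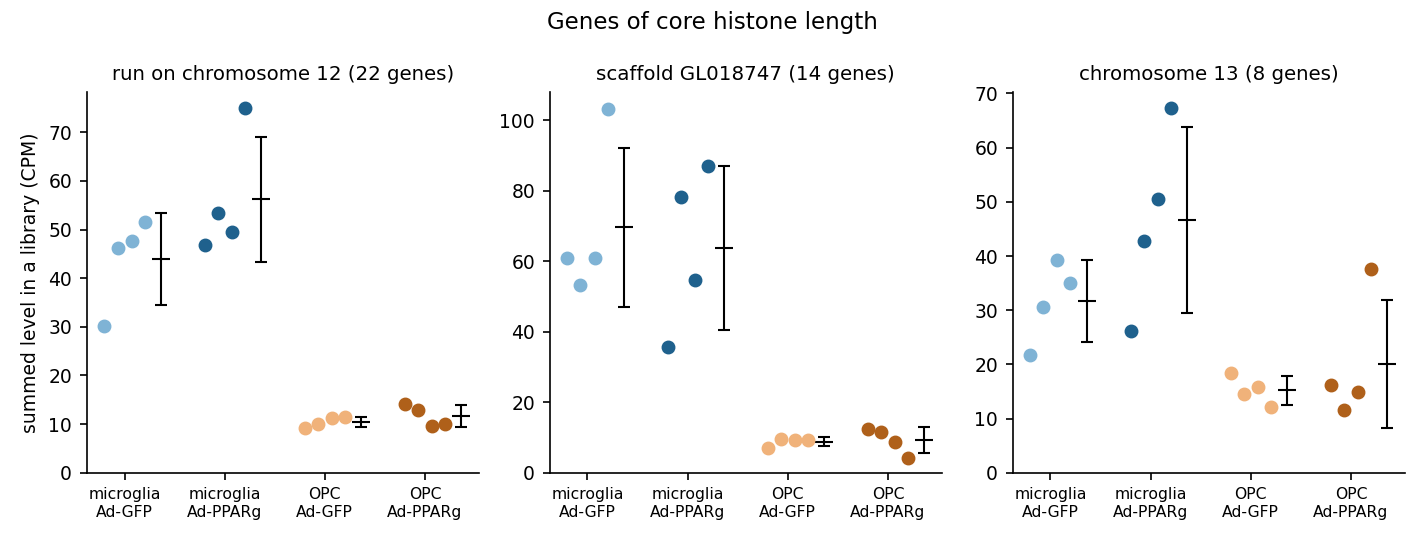
Summed level in CPM (vertical axis) of the genes of core histone length on chromosome 12, on scaffold GL018747 and on chromosome 13, by group; each point is a library and the bar beside each group is the mean with its SD (n = 4). In the left and middle panels all microglia libraries lie above all OPC libraries, and in the right panel OPC Ad-PPARg replicate 4 reaches 37.5 CPM.

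After Ad-PPARg no intronless gene passed the test in microglia. Of the 1121 genes 361 were tested and 0 were called (edgeR, adjusted p under 0.05), as were 0.0% of the 13041 genes in the fit. At an unadjusted p under 0.05 there were 11 higher and 26 lower after Ad-PPARg, against 4.87% and 6.54% of all genes. By DESeq2 1 was called and by edgeR without the filter 1, where 0.928% and 0.0178% of all genes were. By limma voom with quality weights for the samples it was 28 of the 361 (7.76%), below the 9.82% of all genes called that way. The groups did not overlap in 5 genes that were higher and 7 that were lower, against 1.85% and 2.26% of all genes. The median log2 difference, Ad-PPARg minus Ad-GFP, was -0.12 over the 361 genes and 0.03 over all genes. The first part of the animals' identifiers, whose meaning the labels leave out, never occurs in both treatments, so it and the treatment cannot be told apart. CPM in the comparisons of treatments were scaled within the cell type.

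The gene that came closest to the threshold was ENSOCUG00000013247 on chromosome 14 (87023626 to 87023994, 369 bases). It had 0.443, 1.01, 0.404 and 1.42 CPM in microglia Ad-PPARg replicates 1 to 4 and 16.9, 8.78, 6.95 and 5.79 CPM in Ad-GFP replicates 1 to 4. The groups did not overlap, the log2 difference was -3.51 (SE 0.50, n = 4 each) and the edgeR adjusted p was 0.142. It is the gene called by DESeq2 and by edgeR without the filter (adjusted p = 0.0209), and it also passed in limma voom with quality weights (adjusted p = 0.0271). Leaving out single libraries gave edgeR adjusted p-values of 0.0642 to 0.459. With counts summed per first part of the identifier the adjusted p was 0.695. In OPC it had 0.996, 0.373, 0.329 and 9.88 CPM after Ad-PPARg and 3.76, 7.91, 5.67 and 5.01 CPM after Ad-GFP, so that OPC Ad-PPARg replicate 4 stood with or above the controls (log2 difference -0.97, SE 0.96, edgeR adjusted p = 0.9999).

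The other genes named by their p in microglia did not pass either. ENSOCUG00000021983 on chromosome 17 (72033359 to 72033775, 417 bases) had 0.295, 0.202, 0.607 and 0.417 CPM after Ad-PPARg and 1.45, 1.64, 1.78 and 1.19 CPM after Ad-GFP (log2 difference -1.96, SE 0.48, edgeR adjusted p = 0.409). In OPC the same gene had 0.925, 0.373, 0.739 and 0.559 CPM against 1.5, 2.2, 2.83 and 1.37 CPM (log2 difference -1.58, SE 0.42, edgeR adjusted p = 0.9999). The groups did not overlap in either cell type, at 2 to 30 counts a library, and 3 animals per treatment are shared by the 2 comparisons. In the other direction ENSOCUG00000013576 on chromosome 14 (126200048 to 126200401, 354 bases) had 0.886, 0.806, 1.42 and 1.67 CPM against 0.0803, 0.0632, 0.238 and 0.148 CPM in microglia (log2 difference 3.08, SE 0.61, edgeR adjusted p = 0.409). This rests on 6 to 21 counts a library against 1 to 4, so the size of the difference is uncertain. The OPC values of this gene were 1.07, 2.39, 3.12 and 2.61 CPM against 0.188, 2.02, 0 and 0 CPM, with Ad-GFP replicate 2 among the Ad-PPARg libraries. ENSOCUG00000024794 on chromosome 8 (75913187 to 75913771, 585 bases) had 1.77, 1.14, 1.75 and 0.917 CPM against 0, 0.379, 0.119 and 0.297 CPM in microglia (log2 difference 2.78, SE 0.73, edgeR adjusted p = 0.409). Here too the counts were low, 11 to 26 a library against 0 to 6.

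In OPC 368 genes were tested and 0 were called (edgeR), as were 0.0% of the 13492 in the fit. At an unadjusted p under 0.05, 8 were higher and 2 lower after Ad-PPARg, against 0.763% and 0.467% of all genes. By DESeq2 0 were called and by limma voom with quality weights 1, against 0.0519% and 0.0667% of all genes. The groups did not overlap in 3 genes that were higher and 2 that were lower, against 0.682% and 0.563% of all genes. The median log2 difference was 0.03 over the 368 genes and 0.03 over all. The lowest p among higher genes was that of ENSOCUG00000023274, described with the animals below. Next was ENSOCUG00000027981 on scaffold GL019631 (9981 to 10475, 495 bases), with 169, 109, 53.4 and 31.6 CPM after Ad-PPARg and 41.4, 40.5, 20.1 and 31.4 CPM after Ad-GFP. Its groups overlapped (log2 difference 1.45, SE 0.48, n = 4 each, edgeR adjusted p = 0.9999). Among lower genes ENSOCUG00000012125 on scaffold GL018702 (7603801 to 7604121, 321 bases) followed, with 6.47, 10.7, 14.5 and 7.83 CPM against 15.4, 16.6, 12.8 and 17.8 CPM (log2 difference -0.66, SE 0.27, edgeR adjusted p = 0.9999).

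The effects of treatment in OPC and in microglia were compared directly in the fit of all 16 libraries. Of the 431 genes 0 were called (edgeR, lowest adjusted p 0.997), as were 0.0% of all genes, and 11 (2.55%) had an unadjusted p under 0.05, where 2.73% of all genes did. That count was 7 to 21 when single libraries were left out (7 for microglia Ad-PPARg replicate 3 and for microglia Ad-GFP replicate 1, and 21 for replicate 4 of OPC Ad-PPARg). By DESeq2 and by limma voom with quality weights 0 were called as well, against 0.0136% and 0.0272% of all genes. The lowest p belonged to ENSOCUG00000024543, a gene of H2B length on chromosome 13 (42189836 to 42190216). It had 2.66, 1.75, 0.876 and 1.92 CPM in microglia after Ad-PPARg, 0.964, 1.39, 1.13 and 1.34 CPM after Ad-GFP, 0.285, 0.224, 0.0821 and 0.186 CPM in OPC after Ad-PPARg and no count in the 4 OPC Ad-GFP libraries, so that no fold is given. Others near the top of the list were ENSOCUG00000012125 (lower in OPC after Ad-PPARg by the values above), ENSOCUG00000000018 on chromosome 3 (83214104 to 83214661) and ENSOCUG00000025481 on chromosome 8 (26945542 to 26946288). In microglia ENSOCUG00000012125 was near the limit of counting, with 2 to 6 counts a library after Ad-PPARg and 0 to 3 after Ad-GFP. It was not tested in microglia by itself. For ENSOCUG00000000018 the log2 difference was -0.65 (SE 0.19) in microglia and 0.15 (SE 0.18) in OPC, and for ENSOCUG00000025481 it was 1.70 (SE 0.70) and -0.46 (SE 0.43). Neither passed in any of the comparisons of treatments. The summed level of the run on chromosome 12 was 46.4 ± 8.77 CPM after Ad-PPARg and 36.9 ± 8.43 after Ad-GFP in microglia, and 14.0 ± 2.96 and 12.6 ± 1.49 CPM in OPC (n = 4 each, overlapping).

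Several intronless genes had levels that followed the animal in both cell types. ENSOCUG00000023274 on chromosome 14 (65242240 to 65242760, 521 bases) was among the genes higher after Ad-PPARg at an unadjusted p under 0.05 in both cell types. It had 88.3, 7.05, 8.36 and 108 CPM in microglia Ad-PPARg replicates 1 to 4 and 6.43, 9.16, 9.86 and 5.64 CPM in Ad-GFP replicates 1 to 4. In OPC it had 114, 5.75, 69.5 and 4.57 CPM and 5.08, 6.51, 6.76 and 3.64 CPM. The 2 high microglia libraries and the 2 high OPC libraries came from the same 2 animals, and the other Ad-PPARg libraries were at the level of the controls. The log2 difference was 2.74 (SE 0.90, edgeR adjusted p = 0.418) in microglia and 3.13 (SE 0.97, edgeR adjusted p = 0.9999) in OPC.

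That gene led to a count over all genes tested in both cell types, chosen after its values were seen. A gene was counted when its level ranged at least 4-fold over the 6 animals in each cell type and the animals' values in the 2 cell types, as log2(CPM + 0.5), had a Pearson correlation of at least 0.9. Of the 311 intronless genes, 10 (3.22%) met this, and of all 12413 genes 45 (0.363%) did. A range of at least 4-fold in both cell types by itself was found in 22 (7.07%) and in 205 (1.65%). A gene of 327 bases on chromosome 10 (12911779 to 12912105) had 2 separate levels. It stood at 14.3 and 12.1 CPM in microglia and OPC of 1 Ad-PPARg animal and at 14.5 and 9.41 CPM in 1 Ad-GFP animal. OPC Ad-PPARg replicate 4 and OPC Ad-GFP replicate 3, from animals with no microglia library, had 14.4 and 12.9 CPM. The other 6 microglia libraries had 0.295 to 1.26 CPM and the other 4 OPC libraries 0.465 to 0.996 CPM. High and low animals occurred in both treatments.

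A gene of 396 bases on chromosome 3 (620986 to 621381) was likewise either near 0 or clearly present. It had 0.148, 6.04, 6.94 and 4.50 CPM in microglia after Ad-PPARg and 13.5, 0.0632, 0.178 and 5.49 CPM after Ad-GFP. In OPC it had 0.0711, 7.39, 6.57 and 0 CPM and 0.188, 0.465, 14.4 and 8.95 CPM. A gene of 705 bases on chromosome 14 (113949389 to 113950093) had 10.0, 1.48, 1.15 and 1.42 CPM in microglia after Ad-PPARg and 14.7, 19.8, 15.3 and 1.19 CPM after Ad-GFP. Its OPC values were 16.6, 1.19, 1.15 and 24.8 CPM and 15.5, 35.2, 9.81 and 0.911 CPM. Both genes had high and low animals in each treatment. A pair of genes of 555 bases, on chromosome 2 (27709552 to 27710106) and chromosome 17 (36007915 to 36008469), went up and down in the same animals, the first at 34.4, 91.6, 45.8 and 4.50 CPM and the second at 19.8, 46.3, 23.1 and 4.83 CPM in microglia Ad-PPARg replicates 1 to 4. Their equal length makes it uncertain whether they share reads, which was not tested. The cause of these differences between animals was not tested.

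**Figure D5:**
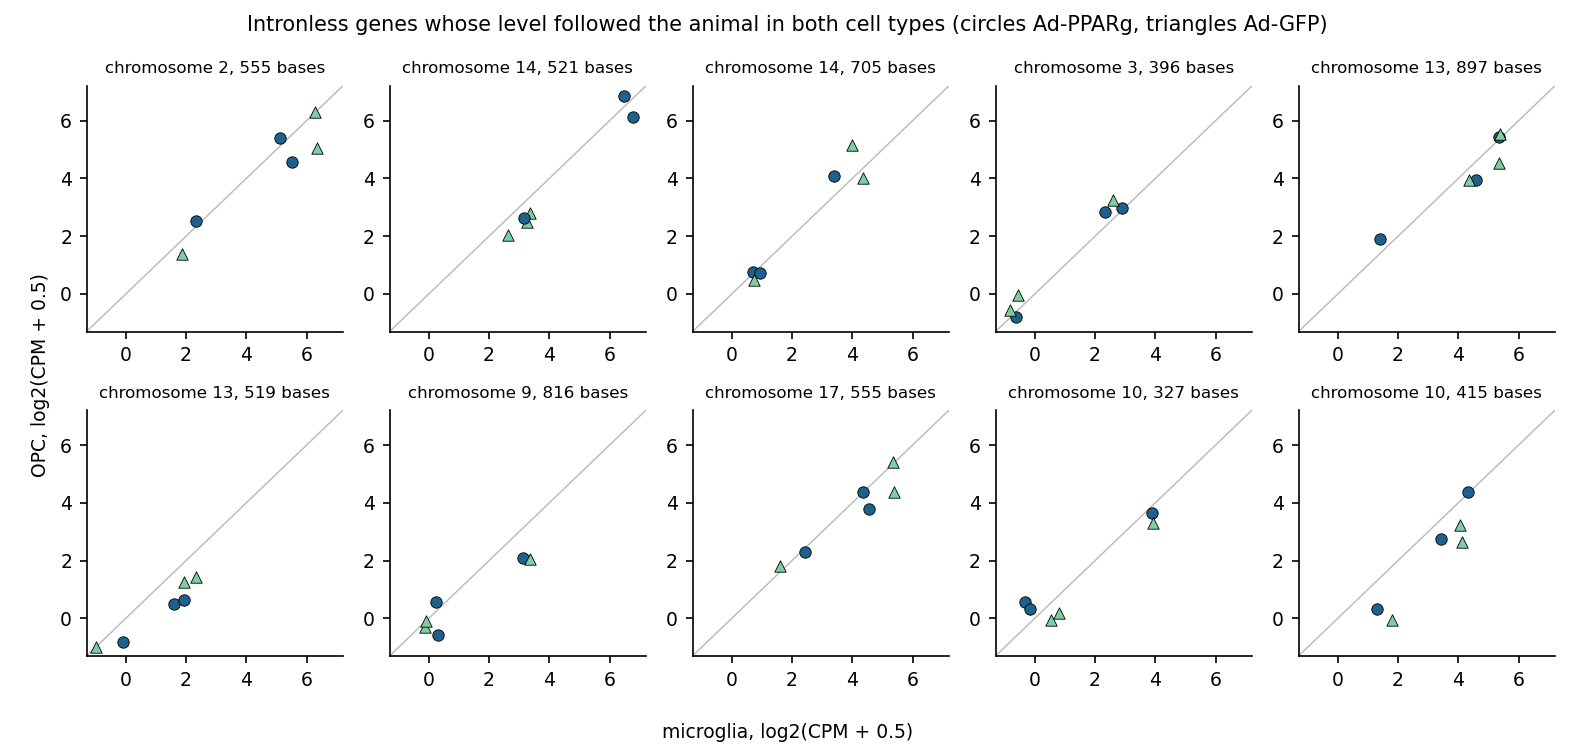
Level in OPC against level in microglia, both as log2(CPM + 0.5), for the 10 intronless genes chosen because the 6 animals with both cell types ranged at least 4-fold in each and lay along a line; each point is an animal, circles after Ad-PPARg and triangles after Ad-GFP, and the line marks equal levels. In the panel of 521 bases on chromosome 14 the 2 high animals received Ad-PPARg; in the other panels animals of both treatments are among the high ones.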

How the data were processed

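The deposited files hold raw read counts per gene with each gene's position, strand, exon entries and length, per the file headers. Per the submitters' processing notes the authors used bcl2fastq 2.17, STAR 2.5.2b and Subread 1.5.2. What each tool did, the genome build, the strand setting of the counting and any selection of poly(A) RNA were not given in the sources used here, and coordinates are as the files give them. None of the 23669 identifiers matched the reference table of 38822 genes, so the marker and pathway lists by symbol could not be used and no sequence is shown.

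Genes with 1 exon entry and 300 to 899 bases were taken as described. They, the lists and the comparisons were chosen with earlier results of these data known. Counts were tested with edgeR 4.0.16 (R 4.3.3; TMM scaling, filterByExpr, robust quasi-likelihood fit, Benjamini-Hochberg adjustment over all genes tested, threshold 0.05). One fit of all 16 libraries, with a mean for each group, gave the comparison of cell types and the difference of the treatment effects. Treatments were compared in a fit of each cell type. SE is the absolute log2 difference over the root of F. CPM for the cell types are on the TMM scale of the fit of all libraries, and those for treatments and animals on that of each cell type's own fit. CPM for detection used plain library totals, and thinning drew each library down to the smallest total. The scripts were tested on simulated data. Exact permutation tests planned for shares over the intronless genes are not given, and the shares are described by their ranges. A limit from a count of 0 covers counting error only.

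Genes were named by identifier where they had the 2 lowest p-values in a direction. Up to 8 more per direction, at 5 CPM or more in the higher cell type and without overlap, were given by position in order of size of difference, as were the 5 highest per kilobase in each cell type and the chromosome 12 genes of 300 to 420 bases that were tested. The genes that followed the animal were chosen after their values were seen.

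Alternatives were RLE and upper-quartile scaling, no filter, DESeq2 1.42.0, limma 3.58.1 voom with sample quality weights, no mitochondrial genes, leaving out each library, blocks, each treatment by itself, counts summed per first part of the animal identifier and, added after seeing the data, leaving out the 5 libraries with the most genes detected. The 6 animals with both cell types, known from the identifiers in the labels, pair libraries across cell types. Deviations of the paired libraries from their group means correlated at -0.03 to 0.25 (14699 genes). Within groups, all 24 library pairs showed more difference than sampling noise (chi-square per gene 6.57 to 211), so none was counted as a duplicate. Nothing in the labels says that animals came from separate litters.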

Additional observations from a re-analysis of the deposited data

Results flagged for a closer look

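In groups of 4 libraries, the highest or lowest value was compared with its nearest neighbour by Dixon's ratio. In 276 such groups 21 values exceeded its 95% critical value, where chance gives about 1 in 20. The values below are in CPM unless said otherwise, and no cause was tested.

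Some values stood apart in both cell types of the same animal. The gene at 61956588 to 61957025 on the X chromosome had 89.0 in microglia Ad-PPARg replicate 3 (others 1.18 to 7.33) and 30.8 in OPC Ad-PPARg replicate 2 (others 0.466 to 4.35), which are 1 animal. The gene at 78261998 to 78262343 on chromosome 13, which overlaps an exon of another gene, had 25.6 in microglia Ad-PPARg replicate 4 (others 1.15 to 1.68) and 10.3 in OPC Ad-PPARg replicate 3 of the same animal (others 0.746 to 1.49). It also had 2.09 in OPC Ad-GFP replicate 2 (others 11.3 to 12.4). The gene at 42739160 to 42739490 on chromosome 12 had 273 in microglia Ad-PPARg replicate 1 (others 0.525 to 3.54) and 11.3 in OPC Ad-PPARg replicate 1 of the same animal (others 0.48 to 1.89).

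Among summed measures, OPC Ad-GFP replicate 2 gave 1.46% of its counts to the intronless genes (others 1.16 to 1.19%). The genes of core histone length on scaffold GL018747 summed to 103 in microglia Ad-GFP replicate 4 (others 53.3 to 61.1). In the run on chromosome 12, the gene at 10913957 had 11.8 in microglia Ad-GFP replicate 1 (others 21.9 to 24.0) and the gene at 10866849 had 0.536 in OPC Ad-PPARg replicate 1 (others 0.0691 to 0.118).

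Of the genes compared between cell types, the one at 142149162 on chromosome 1 had 19.0 in microglia Ad-GFP replicate 3 (others 11.7 to 12.2) and 0.295 in OPC Ad-PPARg replicate 2 (others 0.0596 to 0.08). The one at 308527 on scaffold GL018806 had 0.412 in OPC Ad-PPARg replicate 2 (others 0 to 0.0691). The abundant gene at 25786776 on chromosome 16 had 359 in OPC Ad-PPARg replicate 1 (others 201 to 203).

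Of the genes compared between treatments, ENSOCUG00000013576 had 2.02 in OPC Ad-GFP replicate 2 (others 0 to 0.188), and ENSOCUG00000013247 had 9.88 in OPC Ad-PPARg replicate 4 (others 0.328 to 0.996). The gene at 132823359 on chromosome 13 had 0.152 in OPC Ad-GFP replicate 4 (others 1.5 to 1.55). The gene at 241823 on scaffold GL018838 had 0.373 in OPC Ad-PPARg replicate 4 (others 1.27 to 1.4). The gene at 79089257 on chromosome 15 had 8.71 in microglia Ad-PPARg replicate 1 (others 5.86 to 6.04), and ENSOCUG00000025481 had 0.562 in microglia Ad-GFP replicate 1 (others 4.17 to 4.9).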

How the results depend on the processing

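The counts of intronless genes called between the cell types stayed within 1.5 times under the alternatives run. Leaving out 1 library at a time gave 99 to 107 higher in OPC and 169 to 187 higher in microglia, and with the animal as a replicate block the counts were 100 and 172 (fixed) or 107 and 186 (random). The shares of all genes called in these fits are not given here. In the random block 1 single named gene lost its call and 1 gained one. On chromosome 12 the genes of 300 to 420 bases higher in OPC numbered 2 with no filter on low counts and 0 within Ad-GFP, within Ad-PPARg and without the 5 libraries with the most genes detected, against 1 as reported, and leaving out 1 library gave 0 to 1. After Ad-PPARg, where 0 were called, microglia gave 1 with no filter, 1 by DESeq2 and 28 by limma voom with quality weights, and OPC gave 1 by limma voom. Genes at an unadjusted p under 0.05 numbered 37 in microglia and 15 to 68 without 1 library (15 when Ad-GFP replicate 2 and 68 when Ad-GFP replicate 4 was left out), and 10 in OPC and 6 to 22 without 1 library (22 without Ad-PPARg replicate 4). These counts became 12 and 2 with counts summed per first part of the animal identifier, 22 and 0 with it as a random block, and 117 and 58 by limma voom, which gave 4179 of 13041 and 2198 of 13492 genes at that p overall. For the difference of the effects, 11 of 431 were found (2.55%, against 2.73% of all genes). No filter gave 20 of 1106 (1.81%), where 2.3% of all genes were at that p. DESeq2 gave 17 of 431 (3.94%) and limma voom 37 of 431 (8.58%), against 4.3% and 11.8% of all genes. The log2 difference of the gene at 98666154 on chromosome 12 was -0.17 as reported and 0.0353 under upper-quartile scaling. Counting a gene as detected at 1 count instead of 1 CPM turned the difference in detected share, Ad-PPARg minus Ad-GFP, to -3.70 percentage points in microglia and 1.98 in OPC. The cause of these changes was not tested. Levels under the limit of 3 counts could not be compared at this depth.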

Other observations

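Genes of equal length were also summed, as lengths may group copies of a gene, although nothing here tests that. The 20 genes of 318 bases, spread over 14 chromosomes and scaffolds, summed to 570 ± 133 CPM in microglia and 240 ± 45.9 CPM in OPC (SD, n = 8 each). Of the 5 tested, 4 were higher in microglia (edgeR, against 33.4% of all genes tested). Its leading gene, on chromosome 1, gave 360 ± 59.2 and 168 ± 32.1 CPM, and the others 210 ± 105 and 71.6 ± 14.8 CPM. The 15 genes of 408 bases summed to 541 ± 121 and 241 ± 45.3 CPM, and 4 of their 6 tested genes were higher in microglia. Most of this was 1 gene on chromosome 10 (442 ± 89.9 and 197.3 ± 38.4 CPM), and the others summed to 98.8 ± 49.1 and 43.7 ± 15.4 CPM with overlap between the cell types. The 17 genes of 483 bases summed to 163 ± 30.4 and 41.2 ± 6.82 CPM, with 2 of 5 tested higher in microglia and 1 in OPC (35.1% of all genes). This difference was that of the gene at 18075622 on chromosome 3, at 131 ± 28.2 and 1.28 ± 0.809 CPM, without which the sums were 32.1 ± 3.02 and 40.0 ± 7.201 CPM. The most frequent length, 471 bases, went with low levels: its 29 genes summed to 11.0 ± 5.16 and 11.4 ± 4.38 CPM, and of 5 tested 2 were higher in OPC.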
